A study of Drosophila melanogaster with 42 samples.

Results

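The genes described here are those of chromosome 4, the smallest autosome of Drosophila melanogaster, and the question is which of 7 chromatin-associated proteins lay on which of them in adult intestinal stem cells (ISCs). Every gene that the RefSeq table of genome release 6 places on chromosome 4 was taken. This gave 114 genes, out of 17684 listed for the chromosome arms X, 2L, 2R, 3L, 3R and 4. They comprised 80 protein-coding genes, 14 lncRNA genes, 10 antisense RNA genes, 7 pseudogenes, 2 miRNA genes and 1 snoRNA gene. For each gene, the base pairs (bp) of the gene body, from its first to its last annotated base, that lay in peaks of each protein were counted.

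The peaks come from targeted DamID-seq, in which a bacterial adenine methyltransferase (Dam) fused to a protein methylates GATC sites near the places where that protein sits. Dam alone, or Dam fused to HP1, Pc, RNA Pol II, Kismet, Trr, Brm or H1, was expressed under esg-gal4ts NREGal80. The esg driver is active in ISCs and enteroblasts, and the Notch-responsive GAL80 silences it in enteroblasts, so cells were selected by the driver and not by a sort, and DNA was taken from whole intestines. All groups carried this driver. Flies were held at 18°C, shifted at 3 days of age to 29°C for 1 day, and dissected in pools of 60 intestines per sample. Each fusion had 3 samples, and Dam alone had 11.

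Chromosome 4 is known for a condition that is unusual among fly chromosomes. It stains as heterochromatin and binds HP1, the reader of H3K9 methylation that elsewhere packages repeats near centromeres, yet many of its genes are transcribed. Pc, the chromodomain subunit of Polycomb repressive complex 1, reads H3K27 methylation and keeps developmental regulators off. RNA Pol II marks transcribed genes. Kismet is a CHD-family chromatin remodeller, Trr is the fly H3K4 methyltransferase related to mammalian MLL3 and MLL4, Brm is the ATPase of the SWI/SNF remodelling complex, and H1 is the linker histone.

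Each deposited list gives the start and end of every peak and nothing else, with all 3 samples of a fusion entering a single call. The depth is therefore unknown, no spread between replicates exists, and no statistical test was run on any count or share given here. Counts on chromosome 4 are set beside the same counts over all genes, over the 1455 genes in the 5 Mb of each large arm nearest the centromere (centromere-proximal genes), and over the 16115 genes of the rest of the large arms. A gene without a peak is not a gene without the protein, because sites with few reads were discarded before peaks were called. Among the markers looked up in the RNA Pol II list, the ISC genes esg and Sox21a were covered over 100% of their bodies and spdo over 26.4%. The enteroendocrine genes AstA and Tk had 0 bp and pros 0.977%, while the enterocyte genes Myo31DF and nub were covered over 55.6% and 6.43%.

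HP1 was the most widespread of the 7 proteins on chromosome 4. HP1 peaks touched 78 of the 114 genes (68.4%), where 4.64% of all genes were touched. RNA Pol II peaks touched 57 genes (50%, against 41.5% of all genes) and Pc peaks 13 genes (11.4%, against 5.21%). Kismet peaks touched 14 genes (12.3%, against 23.5%) and Trr peaks 13 (11.4%, against 20.5%). Brm reached 1 gene (0.877%, against 5.95%) and H1 reached 0 of 114 genes (against 0.532%). The share of chromosome 4 genes was thus far above that of all genes for HP1, nearer to it for RNA Pol II, and below it for Kismet, Trr and Brm.

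**Figure D1:**
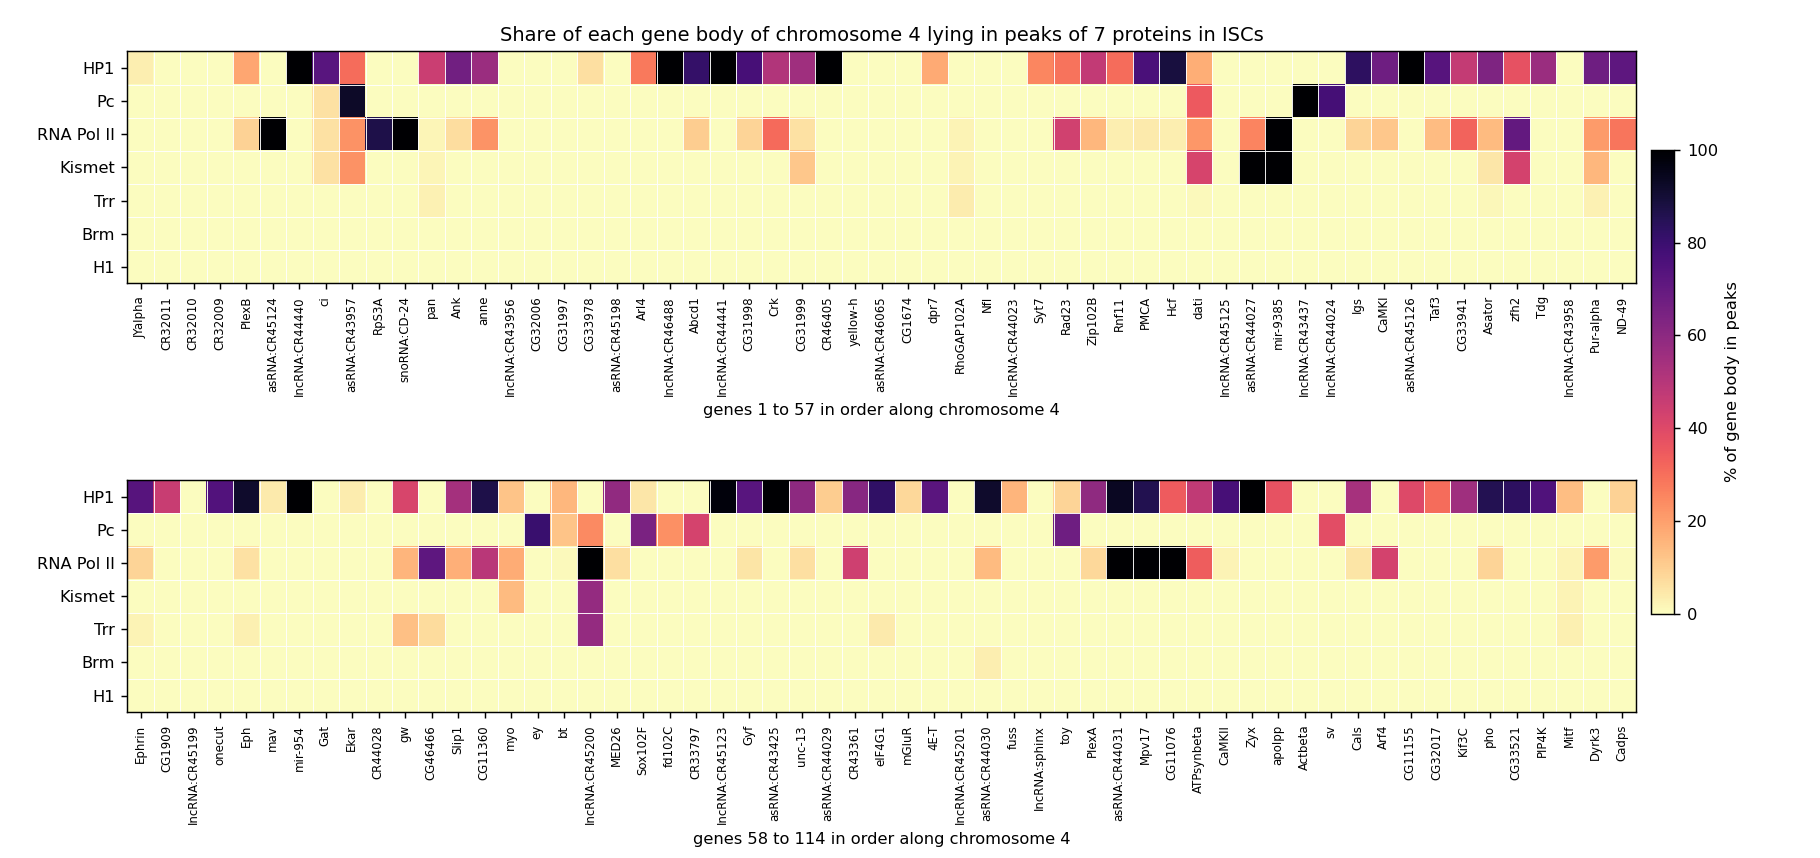
Percent of each gene body lying in peaks of each protein (colour, 0 to 100%), with the 114 genes of chromosome 4 in their order along the chromosome in 2 rows of 57. HP1 fills most of the top line in blocks, Pc appears over few genes, among them ey, Sox102F, toy and sv, and the H1 line is empty.

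Gene length bears on such counts, because a long gene is more easily touched. The median gene of chromosome 4 was 6739.5 bp long, against 1564 bp for centromere-proximal genes and 1712 bp for the rest of the large arms. Among genes of at least 3000 bp, HP1 touched 63 of 76 on chromosome 4 (82.9%), 127 of 469 centromere-proximal genes (27.1%) and 285 of 5000 others (5.70%). RNA Pol II touched 43 of the 76 (56.6%), against 55.0% and 57.9%. Kismet touched 11 of the 76 (14.5%), against 34.8% and 43.9%, and Trr also touched 11 (14.5%), against 29.0% and 38.8%. Pc touched 10 of the 76 (13.2%), against 8.53% and 8.56%, and Brm touched 1 (1.32%), against 11.3% and 15.8%. The floor of 3000 bp did not make lengths equal. Chromosome 4 genes of this class had median lengths of 9754 bp (35 genes with more of the body in HP1) and 11318 bp (41 genes with less). The 401 centromere-proximal genes with less HP1 had a median of 6495 bp, and 4989 of the others 6652 bp. The genes there with more HP1 were longer, at 19023 bp (68 genes) and 11901 bp (11 genes). Length was therefore not removed from these comparisons. In this class, the RNA Pol II shares of the regions lay within a few percentage points of each other. The Pc share of chromosome 4 stayed above the others by less than over all genes, and its Kismet, Trr and Brm shares stayed the lowest.

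**Figure D2:**
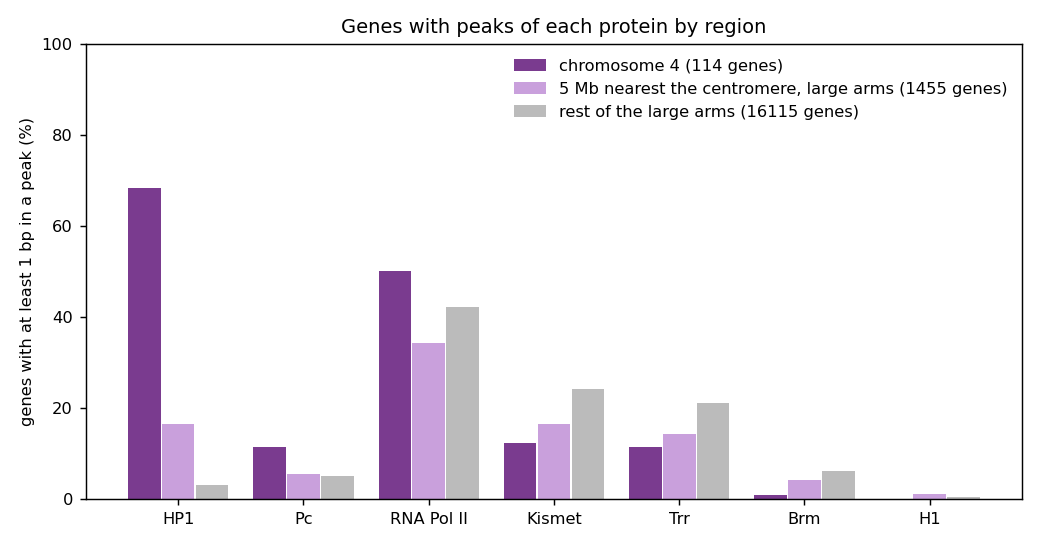
Percent of genes with at least 1 bp in a peak of each protein, for all genes of chromosome 4 (dark bars), of the 5 Mb of each large arm nearest the centromere (light bars) and of the rest of the large arms (grey bars). HP1 stands at 68.4%, 16.4% and 3.13% in these regions, whereas RNA Pol II stands at 50%, 34.3% and 42.1%.

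Measured by base pairs, HP1 peaks covered 37.1% of chromosome 4, taken from its first base to the last peak end at 1278219. This was less than the 48.9% of the centromere-proximal sequence but far more than the 0.965% of the remaining arms. The 205 HP1 peaks of chromosome 4 had a median length of 1302 bp and a longest of 13752 bp, against 3034.5 and 238763 bp in the centromere-proximal sequence and 592 and 44224 bp in the rest of the large arms. By the median they were thus shorter than the former and longer than the latter. Genes made up 83.3% of chromosome 4 and held 86.3% of its HP1 bp. Of the centromere-proximal HP1 bp 41.5% lay in genes, but the share of that sequence made up by genes was not computed. RNA Pol II covered 9.12% of chromosome 4, Pc 8.23%, Kismet 4.39%, Trr 0.786% and Brm 0.0225%.

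Within the 78 genes with HP1 peaks, coverage ranged from 3.34% of the body in JYalpha to 100%, with a median of 57.6%. At least 50% of the body lay in HP1 peaks in 46 genes (40.4%, against 1.57% of all genes). In 8 genes the whole body did. Of these 8, Zyx, which encodes the focal adhesion protein zyxin, was the only protein-coding gene, at 7637 bp, and the others were noncoding genes or a pseudogene of at most 3603 bp.

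The genes with the most HP1 bp were long. unc-13, which encodes a priming factor of synaptic vesicles, held 26458 of its 44508 bp in 12 HP1 peaks. PMCA, the plasma membrane calcium pump, held 23454 bp (76.3%), and pan, the TCF factor of Wingless signalling, held 20362 bp (45.3%). CG11360, a protein-coding gene named here without a role, held 16936 bp (86.8%), and CaMKII, a calcium-dependent kinase, held 14215 bp (77.2%). Hcf, a host cell factor homologue found in several chromatin complexes, carried the longest HP1 peak of the chromosome, chr4:360751-374502, which made up nearly all of the 88.5% of the gene body in HP1. eIF4G1, the scaffold of the cap-binding translation initiation complex, held 12685 bp (82.3%), all in 1 peak. Eph, a receptor tyrosine kinase, was covered over 91.4% of its body by a single peak of 10778 bp.

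HP1 and RNA Pol II met on many of these genes. Both touched 47 of the 114 genes (41.2%), against 2.56% of all genes and 70 of 1455 centromere-proximal genes (4.81%). Of the 46 genes with at least 50% of their body in HP1 peaks, 30 (65.2%) also had RNA Pol II. Of the 155 centromere-proximal genes with that much HP1, 22 (14.2%) had RNA Pol II. Restricted to genes of at least 3000 bp, the counts were 26 of 35 (74.3%) and 18 of 68 (26.5%). On the rest of the large arms 36 of 77 such genes (46.8%) had RNA Pol II, and 7 of 11 did among those of at least 3000 bp. On chromosome 4, the genes with less than 50% of their body in HP1 peaks had RNA Pol II in 27 of 68 cases (39.7%). Kismet was on 4 of the 46 genes rich in HP1 (8.70%) and on 10 of the other 68 (14.7%), and Trr on 5 (10.9%) and 8 (11.8%).

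Counted by bp, however, most RNA Pol II sequence lay outside HP1 peaks. RNA Pol II peaks of chromosome 4 summed to 116566 bp, of which 31173 bp (26.7%) lay in HP1 peaks, and these made up 6.58% of the HP1 bp. HP1 peaks covered 37.1% of the whole chromosome. The overlap was still higher than elsewhere, at 1.71% of RNA Pol II bp in the centromere-proximal sequence and 0.851% in the rest of the large arms. RNA Pol II peaks touched HP1 in 55.2% of cases on chromosome 4, against 10.9% and 3.52%. Of the 58 RNA Pol II peaks, 26 shared no base with HP1, 11 shared 8 bp or less, as when peaks meet at the GATC sites that bound them, and 7 lay wholly inside HP1. The median RNA Pol II peak had 0.216% of its length in HP1. The shared bases were concentrated. The 3 RNA Pol II peaks with the most shared bases held 65.4% of them, and over the other 55 peaks 11.5% of the RNA Pol II bp lay in HP1.

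These 3 peaks lay in named genes. The first, chr4:670572-680735, was 10164 bp long, lay in CG11360 and was inside HP1 over 100% of its length. The second, chr4:527233-533402, lay in zfh2, which encodes a zinc finger homeodomain factor, and was 97.2% inside HP1. The third, chr4:1025732-1032654, spanned a cluster of genes that included Mpv17, for a mitochondrial inner membrane protein, and the neighbouring CG11076, and was 61.2% inside HP1.

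HP1 lay near most RNA Pol II peaks. It was found in the 1 kb to either side of 44 of the 58 peaks (75.9%), on both sides of 24 of them. These 44 were all 32 peaks that touched HP1 and 12 of the 26 (46.2%) that shared no base with it. HP1 covered 37.1% of chromosome 4, and 85 of the 204 gaps between its peaks were under 1 kb, with a median gap of 1252 bp. Many positions of the chromosome therefore lie within 1 kb of HP1, and their share was not computed. In the centromere-proximal sequence 34 of the 427 RNA Pol II peaks without a shared base (7.96%) had HP1 that near. Of all 479 RNA Pol II peaks there, 71 (14.8%) had HP1 within 1 kb and 15 had it on both sides. HP1 covered 48.9% of that sequence but touched 16.4% of its genes, so this coverage is not that of the parts with RNA Pol II. At the centres of the 58 RNA Pol II peaks, 20.7% of positions were in HP1, and 250 bp to the higher-coordinate side 15.5% were, the lowest value in the window of 5 kb on each side. At 1000 bp from the centre the values were 44.8% on the lower-coordinate and 34.5% on the higher-coordinate side, and at 5 kb 46.6% and 50%. In the centromere-proximal sequence the values were 2.51% at the centre and 7.31% and 6.26% at 5 kb.

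**Figure D3:**
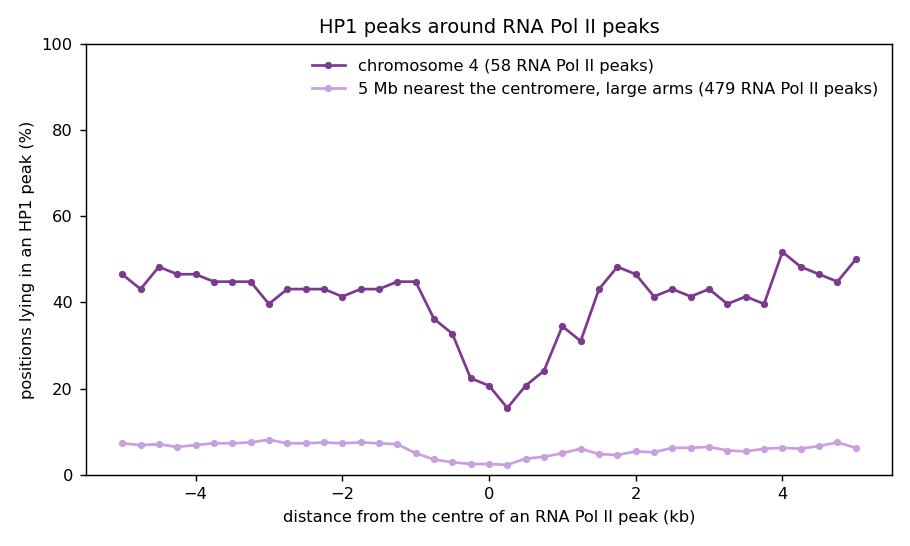
Percent of positions that lie in an HP1 peak, by distance in kb from the centres of RNA Pol II peaks, for 58 peaks on chromosome 4 (dark line) and 479 in the 5 Mb of each large arm nearest the centromere (light line). On chromosome 4 the line drops from over 40% to 20.7% at the centre.

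The same pattern was seen along genes. The table of genes gives no strand, so both ends of each gene stand in for the transcription start. For the 76 genes of at least 3000 bp, windows of 500 bp on each side of a gene end or of its middle were compared. RNA Pol II touched 38 of 152 end windows (25%) and 5 of 76 middle windows (6.58%). Kismet touched 12 end windows (7.89%) and 1 middle window (1.32%). Among centromere-proximal genes of that length, RNA Pol II touched 29.2% of ends and 15.4% of middles, and Kismet 13.6% and 14.5%. On the rest of the large arms the values were 33.2% and 18.2% for RNA Pol II, and 19.2% and 20.6% for Kismet. RNA Pol II thus touched ends more often than middles in every region, and Kismet on chromosome 4 only. On chromosome 4 HP1 touched ends and middles about equally often, at 51.3% and 52.6%. It covered 32.9% of the end windows' bp and 43.5% of the middle windows' bp.

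In 38 of these genes RNA Pol II lay at 1 end only, and in none at both. HP1 covered on average 16.4% of the window at the end with RNA Pol II, 54.5% at the other end and 50.8% in the middle. HP1 was lower at the end with RNA Pol II than at the other end in 25 genes, equal in 5 and higher in 8. Some neighbours, such as ND-49 and Ephrin or PlexA and ATPsynbeta, were scored on the same RNA Pol II peak. These genes are therefore not separate observations. In 192 centromere-proximal genes chosen in the same way the means were 6.24%, 6.25% and 7.27%, with medians of 0%. There HP1 was lower at the RNA Pol II end in 13 genes, equal in 159 and higher in 20, so most showed no difference either way. Windows reach 500 bp beyond the gene, so that for ey, sv and Tdg the RNA Pol II peak at the end lay outside the gene body.

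**Figure D4:**
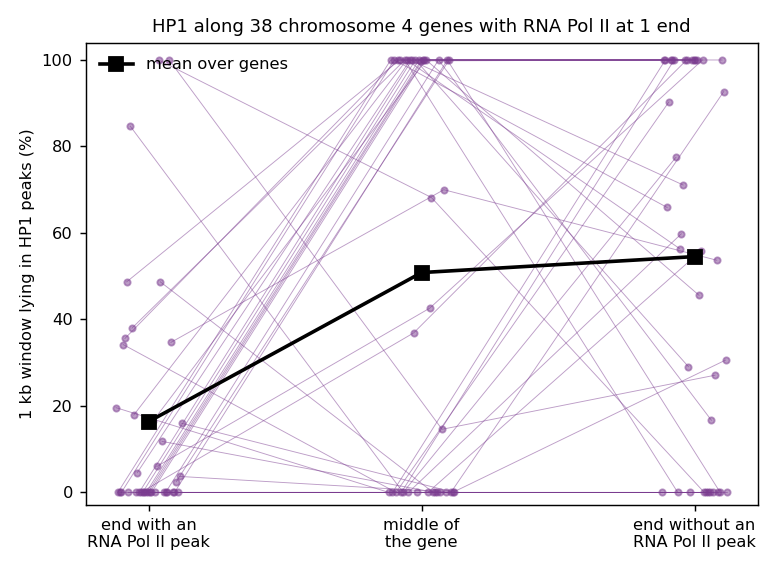
Percent of a 1 kb window lying in HP1 peaks at the gene end with an RNA Pol II peak, at the middle and at the other end, for 38 genes of chromosome 4 of at least 3000 bp (a thin line each) and their mean (black squares). The mean climbs from 16.4% to 50.8% and 54.5%.

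Individual genes show the arrangement. ND-49, a subunit of respiratory complex I, had 2324 of its 3259 bp (71.3%) in 1 HP1 peak and 939 bp (28.8%) in 1 RNA Pol II peak. The RNA Pol II end of ND-49 held 0% HP1, against 100% at the other end. Pur-alpha, for a single-stranded nucleic acid binding protein, and Ephrin, the ligand of Eph, gave the same 0% and 100%. Ephrin adjoins ND-49 and has the same RNA Pol II peak at its end, so those examples are not independent. pho, which encodes the DNA-binding protein that brings Polycomb complexes to their target sites, had 85.3% of its body in HP1 and 8.90% in RNA Pol II, with 2.5% HP1 at its RNA Pol II end and 100% at the other. The exceptions included CG11360, with 100% HP1 at its RNA Pol II end and 0% at the other, and PlexA, a semaphorin receptor, with 100% and 27.1%.

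Genes with RNA Pol II but no HP1 in the body were few. A protein of the active group (RNA Pol II, Kismet, Trr or Brm) with neither HP1 nor Pc was on 9 genes (7.89%, against 41.8% of all genes). Of these 9, 5 were protein-coding. RpS3A, a protein of the small ribosomal subunit, had 86.8% of its 1983 bp in RNA Pol II. Arf4, a small GTPase of membrane traffic, had 42.9%, the kinase gene Dyrk3 had 20.9%, and CG46466, named here without a role, had 71.2%. RhoGAP102A had 1.97% of its 10578 bp in RNA Pol II, the same share in Kismet and 3.65% in Trr. RNA Pol II touched the genes of oxidative metabolism as well, with 34.1% of the body in ATPsynbeta, the catalytic subunit of ATP synthase, which also held 47.3% HP1.

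Pc lay on a short list of genes, most of which encode developmental transcription factors. Of the 8 protein-coding genes with Pc peaks, 7 were in the list of developmental transcription factors, and the other was bt, which encodes the giant muscle protein projectin. ey, the Pax6 factor that specifies the eye, had the highest share, with 18856 of its 23485 bp (80.3%) in 5 Pc peaks and 0 bp in HP1 or RNA Pol II. toy, the second Pax6 gene, had 12238 bp (67.2%), and Sox102F, a SoxD factor, had 21775 bp (64.1%). sv, a Pax2 homologue needed for sensory bristles, had 9432 bp (38.5%), and fd102C, a forkhead factor, had 1754 bp (23.3%). None of these 5 genes held RNA Pol II, Kismet or Trr in the body. HP1 was listed at 0 bp in ey, sv and fd102C, 1646 bp (4.85%) in Sox102F and 1603 bp (8.81%) in toy.

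Of the other 8 genes with Pc, 3 had Pc alone, namely lncRNA:CR43437, lncRNA:CR44024 and the pseudogene CR33797, and 5 also carried a protein of the active group. dati, a zinc finger factor, had 6999 bp (35.1%) in Pc, 8413 bp (42.1%) in Kismet, 4337 bp (21.7%) in RNA Pol II, 3414 bp (17.1%) in HP1 and 192 bp in Trr, which makes it the only gene of the chromosome with peaks of all 5 proteins. ci, the transcriptional effector of Hedgehog signalling, was mostly in HP1, with 6790 bp (72.8%), and its 551 bp (5.90%) each of Pc, RNA Pol II and Kismet lay at its higher-coordinate end. The antisense gene asRNA:CR43957, which overlaps that end, had 6133 of its 6628 bp (92.5%) in the same Pc peak. bt, a gene of 52075 bp, had 6435 bp in Pc, 7809 bp in HP1 and 540 bp in RNA Pol II. Over the chromosome 3.37% of Pc bp lay in RNA Pol II peaks, against 1.36% in the centromere-proximal sequence and 2.99% in the rest of the large arms.

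The Pc peaks were grouped where they lay within 10 kb of each other, which gave 9 domains from 50 peaks. The longest, chr4:800353-850147, spanned Sox102F and fd102C with 12 peaks and 25107 bp of Pc. That around ey, chr4:697996-728795, held 19679 bp, and that at toy, chr4:980278-1006674, held 21685 bp and reached outside the gene. A domain without protein-coding genes, chr4:409369-430772, held 10302 bp over 2 lncRNA genes, lncRNA:CR43437 and lncRNA:CR44024, with 0 bp of RNA Pol II, Kismet or Trr.

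Kismet peaks were few and unevenly spread, with 56170 bp in 15 peaks. The 3 of them that touch zfh2 held 30509 bp (54.3%). The longest Kismet peak, chr4:488002-510500, was 22499 bp long and reached from the end of Asator, a tau tubulin kinase homologue, across the space between the genes into zfh2. A second of 7453 bp, chr4:510963-518415, followed within zfh2. The body of zfh2 was thus covered over 16701 bp (42.8%) by Kismet, 27329 bp (70.0%) by RNA Pol II, 14588 bp (37.3%) by HP1 and 90 bp by Trr. It was the widest RNA Pol II gene of the chromosome, ahead of CG11360 with 9594 bp. These 2 Kismet peaks had 0 bp in HP1 and lay in a stretch of 34174 bp without HP1, from 484590 to 518763. The third Kismet peak of zfh2, chr4:523280-523836, was 557 bp long and had 80 bp (14.4%) in HP1.

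dati, described above, had the second largest amount of Kismet, and pan, Pur-alpha, Mitf, a bHLH factor, and myo, a TGF-beta ligand, held between 600 and 1373 bp. Over the chromosome, 2.03% of the Kismet bp lay in HP1 peaks, 12 of 15 Kismet peaks shared no base with HP1, and 0 had at least 50% of their length in it. In the centromere-proximal sequence 0.693% of Kismet bp lay in HP1, and in the rest of the large arms 0.495%. HP1 was touched by 20% of Kismet peaks on chromosome 4, against 5.96% and 3.31% there. All 14 genes with Kismet also had RNA Pol II. The 2 fusions have their 3 Dam-only samples in common, so that count is given only as the mix and not as a result on its own.

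Trr made up 10051 bp in 20 peaks with a median of 375 bp. gw, which encodes the GW182 protein of miRNA silencing, had the most, with 1535 bp (13.3%) in 1 peak. pan had 1070 bp, Mitf 783 bp and eIF4G1 650 bp. Trr was called against its own Dam-only samples, and its peaks can be set beside the others. Of its bp, 82.3% lay in RNA Pol II peaks, against 84.5% in the centromere-proximal sequence and 81.9% in the rest of the large arms. In Kismet peaks lay 59.0%, against 84.4% and 87.2%. The shared Trr and Kismet bp were 10.6% of the Kismet bp. In 3 places, in pan, in Mitf and at the higher-coordinate end of the chromosome, the Trr and Kismet peaks had the same start and end. In HP1 peaks lay 8.80% of the Trr bp, against 1.12% in the centromere-proximal sequence and 0.865% in the rest of the large arms. On chromosome 4 nearly all of these bp were in 2 peaks wholly inside HP1, in eIF4G1 (650 bp) and Asator (230 bp).

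The single Brm peak of the chromosome, chr4:959491-959777, was 287 bp long and reached 103 bp into the antisense gene asRNA:CR44030. H1 had no peak. H1 peaks were few elsewhere too, with 129 on the 6 arms.

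Grouping the protein-coding genes by role showed that Pc was almost wholly on 1 group. These lists were drawn up with earlier results of these data known, and their counts are descriptions. Of 10 developmental transcription factors, 7 had Pc, 7 had HP1, 4 had RNA Pol II and 4 had Kismet, with a median of 29.2% of the body in Pc. The 3 members without Pc were pan, zfh2 and onecut, a homeodomain factor of neurons that held 74.4% HP1 and no RNA Pol II. Of 12 general regulators of transcription and RNA, 0 had Pc, 11 had HP1 and 8 had RNA Pol II, with a median of 69.9% in HP1. This group held pho, Hcf, gw and eIF4G1, and lgs, the BCL9 homologue of Wingless signalling, with 82.9% HP1 and 8.68% RNA Pol II. The median HP1 share over all 114 genes was 30.8%, and 11.4% of all 114 genes had Pc. Those 114 include noncoding genes and pseudogenes, whereas the lists hold protein-coding genes only, so this median is not a like baseline. The median over the protein-coding genes was not computed, but 35 of them (43.75%) were rich in HP1 by the threshold used above. Of the 80 protein-coding genes of the chromosome, 65 (81.25%) had HP1, 47 (58.75%) RNA Pol II, 10 (12.5%) Kismet and 8 (10%) Pc. The counts of these small lists, here and below, are to be read beside those shares.

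The other groups were without Pc except for bt. Of 9 signalling genes, 8 had HP1 and 6 RNA Pol II, with a median HP1 share of 18.5%. The TGF-beta ligands differed among themselves, as Actbeta had no peak of any protein, mav had 116 bp of HP1 only, and myo had 12.1% HP1 and 17.5% RNA Pol II. Of 6 kinases and small GTPases, 4 had HP1 and 4 had RNA Pol II. All 6 genes of the synapse and of membrane traffic had HP1 and 4 had RNA Pol II, with 53.7% HP1 in Cals, for calsyntenin, and 9.34% in Cadps, a factor of dense-core vesicle release. Of the 3 genes of translation and energy, all 3 had RNA Pol II and 2 had HP1. Of 8 genes of structure and other roles, 7 had HP1 and 5 had RNA Pol II.

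**Figure D5:**
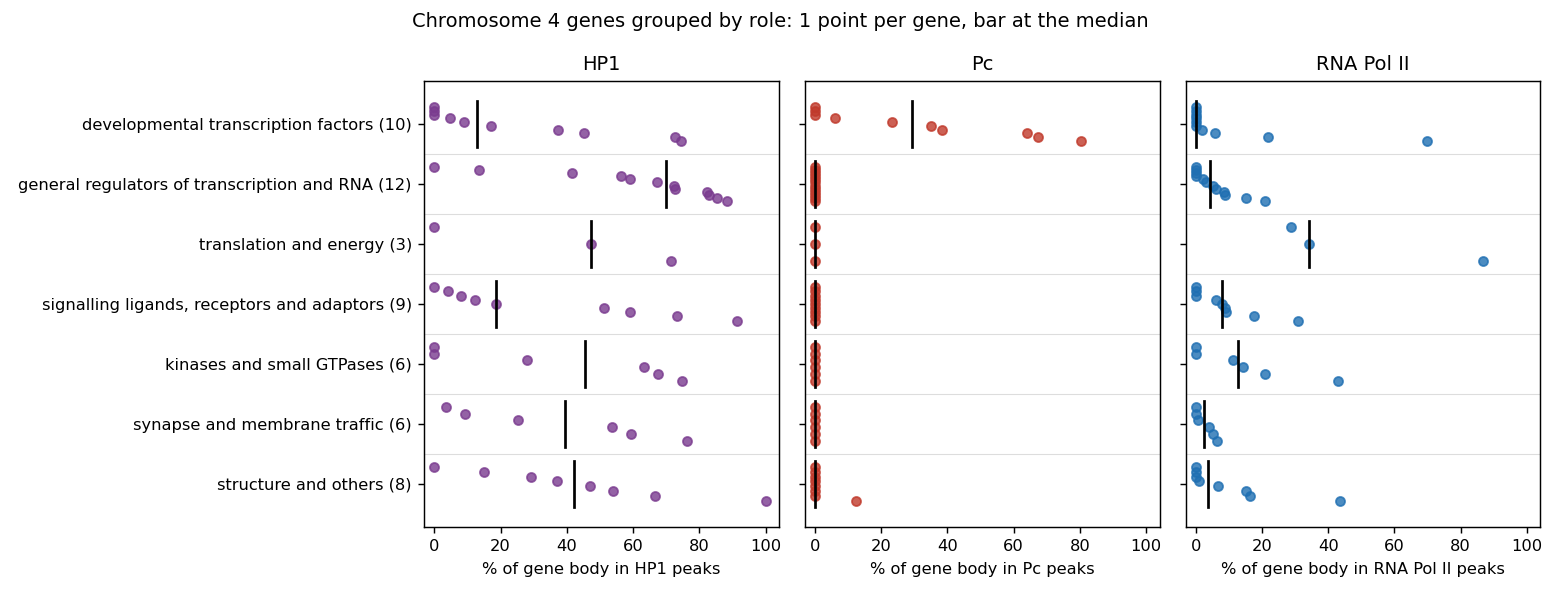
Percent of the gene body in HP1, Pc and RNA Pol II peaks for the genes of each role list (a point per gene, a bar at the median, the number of genes in brackets). The only points above 0% in the Pc panel are the 7 developmental transcription factors and bt at 12.4%.

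Counted as mixes of HP1, Pc and the active group, 44 genes (38.6%, against 2.38% of all genes) had HP1 with a protein of the active group. HP1 alone was on 28 (24.6%, against 1.88%), and the active group alone on 9 (7.89%, against 41.8%). No peak was found on 20 (17.5%, against 48.7%). Another 6 had Pc alone (5.26%, against 2.67%), and 4 had all of HP1, Pc and the active group (3.51%, against 0.317%). HP1 with Pc was on 2 (1.75%, against 0.0679%), and Pc with the active group on 1, lncRNA:CR45200 (0.877%, against 2.15%). The genes with HP1 alone included genes of the nervous system such as Syt7 (25.3%), a synaptotagmin, and mGluR (7.97%), a glutamate receptor. HP1 and Pc were called with 1 Dam-only sample in common, and HP1 and Brm with all 3, so these mixes are set out as counts and shares only. In all, 50 of the 114 genes overlap another gene, and 24 of 205 HP1 peaks and 14 of 58 RNA Pol II peaks lie in more than 1 gene, so genes that share a peak are not separate observations.

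Of the 20 genes without any peak, 7 were protein-coding: CG32006, CG31997, yellow-h, CG1674, NfI, Gat and Actbeta. NfI encodes a nuclear factor I protein and Gat a GABA transporter. They were not all short, since CG1674 has 15174 bp, NfI 8195 bp and Actbeta 7466 bp. The other 13 were pseudogenes, lncRNA or antisense RNA genes, and the 3 pseudogenes CR32011, CR32010 and CR32009 lie together near the first gene of the chromosome, where 35994 bp had no HP1.

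Along the chromosome in steps of 100 kb, HP1 coverage ran from 14.5% to 56.1% over the 12 whole steps and was 9.84% in the last, of 78219 bp. Pc was highest from 700 to 1000 kb, at 23.5%, 25.1% and 18.8%, and 0% in 4 of the 13 steps. RNA Pol II was highest from 500 to 600 kb, at 32.8%, the step with zfh2. Between the 205 HP1 peaks the 204 gaps had a median of 1252 bp, and 21 gaps were longer than 10 kb. The longest, of 58074 bp, spanned ey and the adjoining part of bt, and the next, of 46515 bp, spanned sv and Actbeta.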

How the data were processed

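Targeted DamID-seq of 7 fusions in ISCs was analysed as deposited. The authors aligned reads to genome release 6 (Bowtie2), took read coverage at GATC sites (bedtools), compared each fusion with its Dam-only samples (DESeq2) and joined neighbouring significant sites to form peaks. Tool versions are not given in the sources used here. The deposited columns, chromosome arm, start and end, are positions in bp, with no count, score or p-value. RNA-seq samples were not analysed here. Some genotype labels of HP1 and H1 replicates differ in their numbering from the titles, and samples were grouped by title.

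Positions were read as 0-based and are printed 1-based. Genes came from the RefSeq table of the same release, which gives no strand, exon or sequence, and all 114 matched a FlyBase ID by symbol. Overlaps were computed in Python 3.11.15 (NumPy 2.4.6, matplotlib 3.10.9), tested on simulated intervals and checked base by base. A gene was counted with at least 1 bp in a peak. Named genes were those with a Kismet, Pc, Brm or H1 peak (up to 10 per protein by bp), the 10 with the most bp of HP1, RNA Pol II and Trr, and the members of the role lists. Genes named beyond that rule, such as Zyx, Mpv17, CG46466 and the peak-free genes, were chosen after their values were seen. The members, lists and comparisons were chosen with earlier results of these data known. Kismet and RNA Pol II share all 3 Dam-only samples, as do HP1, H1 and Brm, and Pc shares 1 with these, so no bp overlap is given for these pairs, although one for Pc with HP1 had been planned. Trr shares none. The marker Dl had no row in the gene table under that symbol and was not looked up further. Alternatives were a larger share of the body, 2 GATC sites, extended genes, protein-coding genes, long peaks, other windows and, added after seeing the data, genes of at least 3000 bp, genes that overlap no other, and the RNA Pol II share without 3 peaks.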

Additional observations from a re-analysis of the deposited data

How the results depend on the processing

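The lists hold 1 pooled call per fusion, so no replicate could be left out. No paired analysis was possible because the lists carry no values per sample. Of 115 values under an alternative, over 39 results, 70 were within 1.5 times the reported one and 45 moved further. Counts of genes fell where more of the body was required. With at least 10% of the body, RNA Pol II was on 33 genes, Kismet on 9, Trr on 2 and Brm on 0. With at least 50% of the body, HP1 was on 46, Pc on 6, RNA Pol II on 10, Kismet on 3, Trr on 1 and Brm on 0. With at least 2 GATC sites, known only from the pooled peak edges, Pc was on 8, RNA Pol II on 30, Kismet on 5 and Brm on 0. With genes extended by 1 kb, Brm was on 2. With protein-coding genes only, Pc was on 8 and Brm on 0. With only peaks that reach their list's median length, RNA Pol II was on 37, Kismet on 5 and Trr on 3. Among the 64 genes that overlap no other gene, HP1 was on 43 (67.2%), Pc on 7 (10.9%), RNA Pol II on 32 (50%), Kismet on 7 (10.9%) and Brm on 0. These counts moved with the number of genes, while the shares of the first 4 stayed within 1.5 percentage points of those of all 114. Trr was on 10 of the 64, and its share shifted more, to 15.6% from 11.4%.

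For the mixes, at least 10% of the body gave 23 genes with HP1 and the active group, 44 with HP1 alone, 2 with all of HP1, Pc and the active group, and 1 with HP1 and Pc. Long peaks gave 24 with HP1 and the active group, 0 with Pc and the active group, 1 with HP1 and Pc, and 31 with no peak. Protein-coding genes alone gave 5 with the active group alone, 0 with Pc and the active group, 3 with Pc alone and 7 with no peak. Long peaks lowered Trr coverage to 0.398% of the chromosome. Counted as peaks that touch HP1, the shares were 55.2% for RNA Pol II, 20% for Kismet and 15% for Trr, and counted as peaks with at least 50% of their length in HP1, 0% for Kismet. Without the 3 RNA Pol II peaks with the most shared bp, 11.5% of its bp lay in HP1. With windows of 1 kb on each side, RNA Pol II touched 11.8% of gene middles and Trr 6.58% of gene ends. The depth is unknown, so the smallest domain the data could show is too.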
